A study of Mus musculus with 8 samples.

Results

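Regions of H3K27me3 that were found at both culture ages and shared no base with H3K4me3 numbered 1837, of 26634 H3K27me3 regions in all. They were chosen from the peak calls themselves. Overlapping peaks of the 4 H3K27me3 libraries (1 bp or more) were joined into regions, and a region was kept when all 4 libraries had a peak in it and no peak of any of the 4 H3K4me3 libraries overlapped it. Regions with a single peak of 10 kb or more were left out. Presence in all libraries, absence of H3K4me3 and an upper width are therefore properties of the choice and not findings.

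The cells were germline stem cells of mouse testis, labelled wild type and derived from Green mice, which carry an act-EGFP transgene (Tg14), on a DBA/2 background. Every group was kept in medium with human FGF2, rat GDNF and fetal bovine serum, for about 5 months (5M) or about 60 months (60M). Chromatin was cross-linked with formaldehyde and sonicated, with or without micrococcal nuclease, and precipitated with an antibody against H3K27me3 or H3K4me3. Which libraries received the nuclease is not stated, so its part in any difference between libraries or ages cannot be told. Each mark and age has 2 libraries, 8 in all. Whether the 2 were separate cultures is not stated, and every SD and p-value here measures only the spread between libraries, which may be technical.

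H3K27me3 is written by Polycomb repressive complex 2 and marks genes that are kept silent, above all genes of development and lineage choice. H3K4me3 is written at promoters that are active or held ready, and a promoter with both marks is called bivalent. In male germline stem cells Polycomb marks cover many genes of somatic lineages. At silent loci that are not bivalent, H3K27me3 stands without H3K4me3. Sharing no base with an H3K4me3 peak does not by itself place a member at such a locus.

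The H3K27me3 lists held 12002 to 14940 peaks and the H3K4me3 lists 41637 to 47415. Read totals are not in the lists, so sequencing depth is unknown. Positions have borders at steps of 1 kb, and they follow the chromosome lengths of mm9 and not those of mm10, the build that the submitters' processing notes name. No annotation of mm9 was used, so regions are given by position, no gene, exon or intron is assigned, and the labelled cell type was not checked against marker genes. Among the H3K27me3 libraries, 5M library 2 had the longest covered length, 34.9 Mb against 25.4 to 29.5 Mb in the other libraries.

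The choice kept a small part of the H3K27me3 landscape. Of 19766 H3K27me3 regions that overlapped no H3K4me3 peak, 12923 were listed in a single library, 3407 in 2, 1589 in 3 and 1847 in all 4. The limit on width removed 10 of the 1847. Of the 1589 regions listed in 3 libraries, 518 were missing from 5M library 1, 484 from 60M library 2, 322 from 60M library 1 and 265 from 5M library 2. Such a gap means that the peak was not called, and says nothing certain of the mark itself. The members held 13.1 to 16.6% of the peaks of each H3K27me3 list. For comparison, 2806 regions were listed in all 4 H3K27me3 libraries, had an H3K4me3 overlap and passed the same width limit; they are called the H3K4me3-overlapping regions here.

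The regions were short. Merged over the 4 libraries, they had a median length of 3 kb, ran from 1 to 12 kb, and summed to 5.85 Mb. In 175 regions (9.53%) every library had just 1 bin of 1 kb. Borders were identical in all 4 libraries in 311 regions (16.9%), and the summits lay at most 1 kb apart in 1418 (77.2%). At least 1 bin was covered in every library in 1556 regions (84.7%). In the rest, peaks of different libraries were linked only through one another, so that being listed in all 4 did not always mean the same base.

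Strength varied widely within the set. The maximum immunoprecipitation signal of a peak is the authors' value, with a scaling that is not given, so it was used to rank peaks within a library. Member signals ran from 24.4 to 179.1 in 5M library 1 and from 24 to 218.9 in 5M library 2. They ran from 23.3 to 164 in 60M library 1 and from 22.8 to 150.9 in 60M library 2. Within the whole list of a library, the median member stood at a percentile of 64.0 or 70.7 after 5 months, and of 72.4 or 70.7 after 60. Being listed in every library favours strong peaks, so these percentiles describe the choice. All the same, 77 members fell in the lowest 10% of at least 1 list, and 137 were in the highest 10% of all 4. The order of the members was similar between libraries: Spearman's rho of the signal over the 1837 members was 0.864 between the 5M libraries, 0.771 between the 60M libraries and 0.677 to 0.751 across ages. These are correlations across regions of the same libraries, which are not independent replicates.

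The strongest members stood in groups on a few chromosomes. Of the 12 with the highest mean percentile within the lists, 5 lay in a single run of members on chromosome 18 and 3 in another on chromosome 6. The highest of all, on chromosome 18 (37898000 to 37900999), had maxima of 171.4 (5M library 1), 218.9 (5M library 2), 164 (60M library 1) and 150.4 (60M library 2), and it covered the same 3 kb in all 4. The region next in rank, also on chromosome 18 (37886000 to 37889999), covered 4 kb in all 4 libraries, with maxima of 179.1 and 212.6 at 5M and 148.9 and 150.9 at 60M. Raw maxima cannot be set against each other between libraries; within each library both regions stood at the 99.7 percentile or higher of the regions listed in all 4. On chromosome 6 (52185000 to 52188999) the maxima were 177.8 and 217 at 5M and 149.5 and 140.4 at 60M, and an H3K4me3 region listed in all 4 H3K4me3 libraries touched its border. The other 2 of the chromosome 6 group (52164000 to 52165999 and 52197000 to 52202999) also touched H3K4me3 regions found in all 4 libraries. The other 4 stood on separate chromosomes. Those on chromosome 1 (89047000 to 89049999), 2 (74567000 to 74570999) and 7 (86682000 to 86687999) had an H3K4me3 region of all 4 lists at their border. That on chromosome 16 (91302000 to 91306999) covered 5 kb in every library and lay 3 kb from an H3K4me3 region found in a single list.

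Members lay close to one another. With gaps of up to 50 kb allowed, 900 of the 1837 (49.0%) fell into 363 runs of 2 or more, and 937 stood alone. Most runs were pairs, 254 in number, and 12 runs held 5 members or more. The map of the longest runs shows how H3K27me3 and H3K4me3 peaks shared these stretches.

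**Figure D1:**
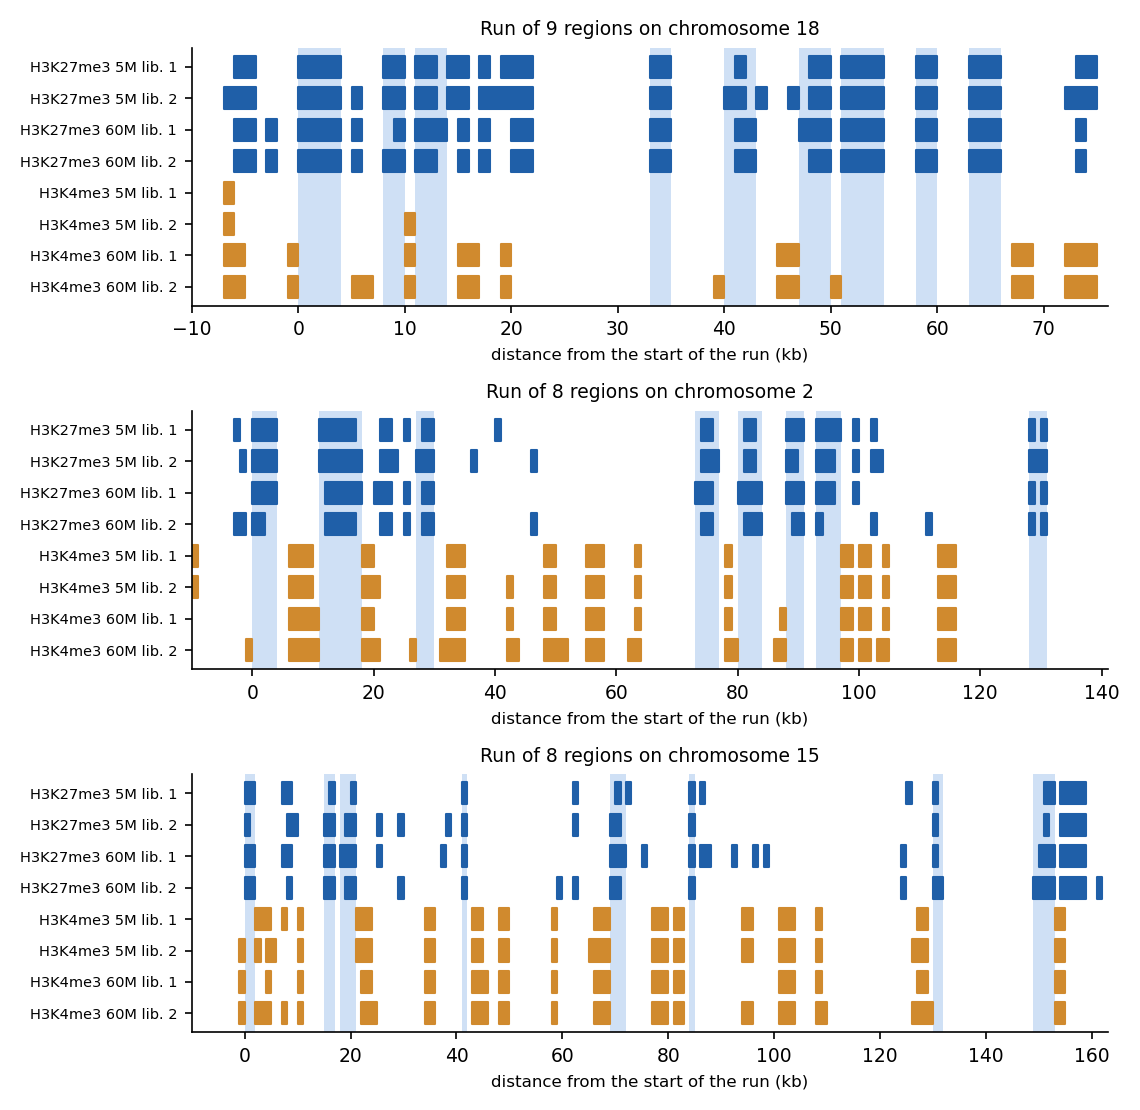
Peaks of the 4 H3K27me3 libraries (blue bars) and the 4 H3K4me3 libraries (orange bars) in the 3 runs with most members; the x axis is the distance from the start of the run in kb, each row is a library, and pale bands mark the members. On chromosome 18 few H3K4me3 peaks are seen at 5M and more at 60M, while on chromosomes 2 and 15 H3K4me3 peaks stand between the members in all 4 libraries.

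The largest run held 9 members in 66 kb of chromosome 18 (37835000 to 37900999). All 9 were above the 96.8 percentile of every H3K27me3 list. No H3K4me3 region in this stretch was listed in all 4 H3K4me3 libraries. The H3K4me3 libraries had 0 and 1 peak there at 5M and 4 and 7 peaks at 60M, covering 0 and 1 kb against 6 and 10 kb. Both 60M libraries were thus above both 5M libraries, but the peaks were weak, none above the 27.8 percentile of its list. This contrast was picked out after the values were seen. In H3K27me3, 3 of the 9 members ranked lower in both 60M libraries and 0 ranked higher, where 25.1% of all 4962 regions listed in all 4 libraries ranked lower and 27% higher. The 3 of 9 is near that share, and no member differed in covered bases without overlap of the ages.

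The runs on chromosomes 2 and 15 had another layout. The run on chromosome 2 (74487000 to 74617999) held 8 members in 131 kb, interleaved with 14 H3K4me3 regions, 11 of them in all 4 lists. The run on chromosome 15 (102763000 to 102915999) held 8 members in 153 kb and 15 H3K4me3 regions, 13 of them in all 4 libraries. H3K4me3 peaks were numerous at both ages. On chromosome 2 there were 13 and 14 in the 60M libraries, against 11 and 12 at 5M, so both 60M libraries were above both 5M libraries by a small margin. In the chromosome 15 run both 5M libraries had 15, and the 60M libraries had 13 and 15, so the ages overlapped. On chromosome 2, 7 of the 8 members ranked lower in both 60M libraries and 0 higher, where 25.1% of all 4962 regions ranked lower and 27% higher. The mean percentile of these 8 members among the regions listed in all 4 was 97.2 and 97.3 at 5M and 94.3 and 93.3 at 60M. On chromosome 15, 3 of the 8 ranked higher in both 60M libraries, against 27% of all 4962 regions, and 0 lower, against 25.1%. The means of 93.1 and 91.2 at 5M and 97.2 and 91.8 at 60M overlapped, so no direction was shown there. Members of a run share a locus and are not independent.

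Most members lay beside H3K4me3. The gap to the nearest H3K4me3 peak of any library was 1 kb at the median and 7 kb at the third quartile. An H3K4me3 peak touched the border of 867 members (47.2%, exact 95% interval 44.9 to 49.5%), and 1323 (72.0%, 69.9 to 74.1%) had one within 5 kb. Touching means that the bins of the peaks were neighbours, so that with bins of 1 kb a small gap or overlap cannot be seen. Between 1 and 5 kb away lay 456 members, over 5 and up to 50 kb away 461, and 53 (2.89%) were farther than 50 kb. On both sides 77 members were touched by H3K4me3, and 308 had H3K4me3 within 5 kb on both sides. The name of the set, regions without H3K4me3, thus holds for shared bases and not for the neighbourhood.

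The H3K4me3 regions that touched members were mostly ones found in every H3K4me3 library. Of the 867 members so touched, 745 (85.9%) had a neighbour listed in all 4 H3K4me3 libraries, against 64.5% of all 54585 H3K4me3 regions. The touching region itself overlapped an H3K27me3 peak of some library in 277 cases (31.9%), where 12.2% of all H3K4me3 regions did. For the 970 members that did not touch H3K4me3, the nearest H3K4me3 region did so in 270 cases (27.8%). The higher share was thus not particular to touching neighbours. Its median length was 2 kb, the same as for all H3K4me3 regions. Nearness was used in choosing the members only as far as overlap was barred, and these shares are descriptions with no test.

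More members had an H3K4me3 peak at or near their border in the 60M libraries, but 2 libraries per age cannot bring such a difference past a threshold of 0.05. The H3K4me3 lists held 45933 and 47415 peaks at 5M and 43699 and 41637 at 60M. The bases that these lists covered were not compared, and the part of peak number or width was not tested. The share of members touched by an H3K4me3 peak was 41.0 and 41.6% with the 5M libraries and 43.4 and 44.5% with the 60M libraries. Within 5 kb the shares were 63.8 and 64.1% at 5M and 67.1 and 67.3% at 60M. Both 60M libraries stood above both 5M libraries in each measure, with 41.3 ± 0.385% against 43.9 ± 0.770% and 63.9 ± 0.192% against 67.2 ± 0.192% (SD, n = 2). An exact two-sided permutation test of 2 libraries against 2 gave p = 0.333 for each, the smallest it allows, and 0.778 after Benjamini-Hochberg adjustment over 14 measures. By region, 36 members (1.96%) were touched in both 60M and neither 5M library, and 10 (0.544%) in both 5M and neither 60M library. Among all 19766 H3K27me3 regions without H3K4me3 overlap these shares were 1.15% and 2.1%, with the larger share at 5M. A further 710 members (38.7%) were touched in all 4 libraries, against 17.99% of the 19766 regions, and the 47.2% touched in any library compare with 27.8%. Of the 19766 regions, 12923 were listed in a single H3K27me3 library, while each member was listed in all 4, so these shares compare unlike sets.

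Set against the H3K4me3-overlapping regions, the members were shorter and weaker in every library. Mean covered length per member was 2.13 kb in 5M library 1, 2.53 kb in 5M library 2, 2.41 kb in 60M library 1 and 2.28 kb in 60M library 2. For the H3K4me3-overlapping regions the same 4 libraries gave 3.46, 4.10, 3.51 and 3.27 kb. A longer region has more room to meet an H3K4me3 peak, so the choice itself bears on this difference. Strength was the highest signal in a region, so a longer region also has more room for a high value, and the measures are not separate. Each library's signal was ranked over the same 4962 regions listed in all 4 H3K27me3 libraries. On this scale the median member reached percentiles of 40.4 and 39.7 after 5 months and 43.8 and 44.0 after 60. Medians of the H3K4me3-overlapping regions were 51.6 and 52.5 after 5 months, and 50.3 and 50.1 after 60.

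**Figure D2:**
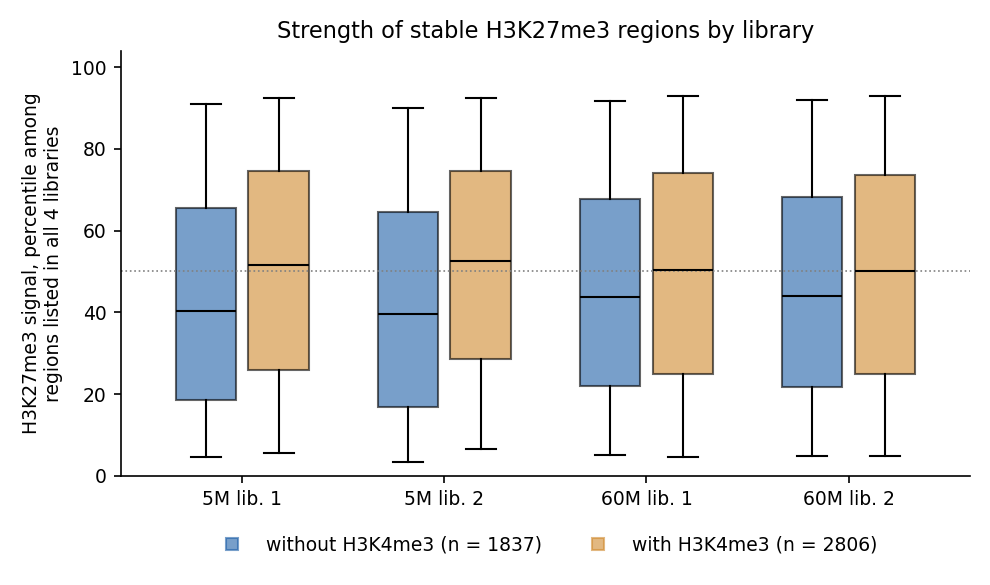
Percentile of the H3K27me3 signal among the 4962 regions listed in all 4 libraries (y axis), for the 1837 regions without H3K4me3 and the 2806 with it, in each library (x axis); boxes give quartiles and median, whiskers the 5th and 95th percentiles. The median of the regions without H3K4me3 is the lower in all 4 libraries and is higher in both 60M libraries (43.8 and 44.0) than in both 5M libraries (40.4 and 39.7).

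The length of the members relative to the H3K4me3-overlapping regions was greater at 60M, while neither length alone separated the ages. Averaged over libraries, a member covered 2.35 ± 0.0908 kb after 60 months against 2.33 ± 0.281 kb after 5 (SD, n = 2), a difference of 0.0212 kb smaller than the spread (exact permutation test, p = 1). Its sign turned without 5M library 1 (-0.0886 kb) and without 60M library 1 (-0.0986 kb). For the H3K4me3-overlapping regions the mean was 3.39 ± 0.173 kb after 60 months against 3.78 ± 0.450 kb after 5, and the libraries overlapped too. Dividing the members' length by that of the H3K4me3-overlapping regions within each library gave 0.615 and 0.616 after 5 months, and 0.687 and 0.699 after 60. The ages did not overlap in this ratio (0.615 ± 0.00106 against 0.693 ± 0.00866, SD, n = 2; exact permutation test, p = 0.333, adjusted p = 0.778). With any 1 of the 8 libraries left out the difference in the ratio stayed between 0.0710 and 0.0869.

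**Figure D3:**
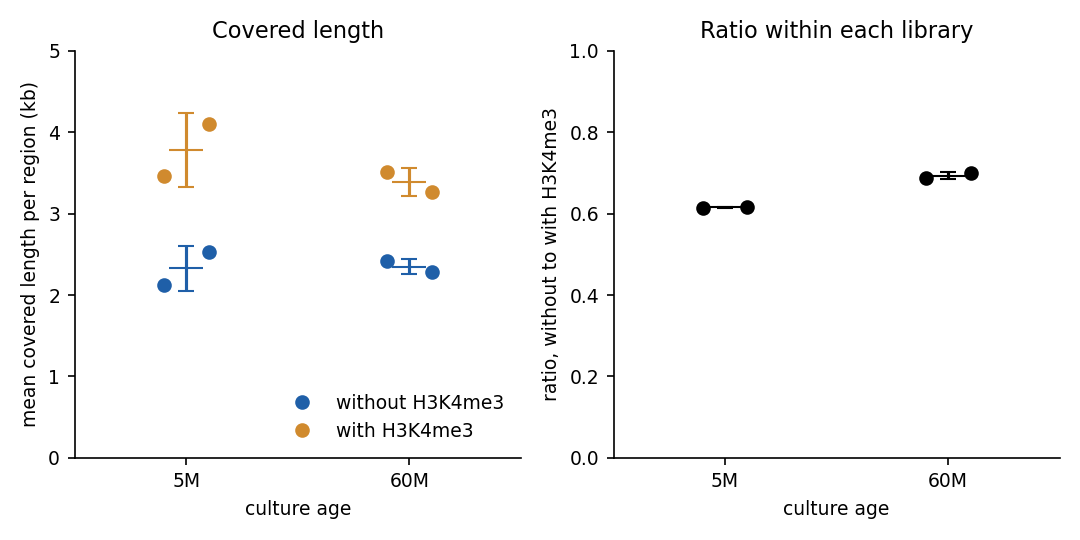
Left, mean covered length per region in kb for each H3K27me3 library at 5M and 60M, for regions without (blue) and with H3K4me3 (orange); right, the ratio of these lengths within each library. Points are libraries, dashes and bars are means ± SD (n = 2). Lengths overlap between the ages, and the ratio lies at 0.615 and 0.616 at 5M and at 0.687 and 0.699 at 60M.

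Counted region by region, members that covered more and members that covered less at 60M were close to balance. The covered length was greater in each 60M library than in each 5M library in 204 members (11.1%), against 8.28% of all 4962 regions listed in all 4 libraries. It was smaller in 175 members (9.53%), against 16.7% of the 4962. Among the H3K4me3-overlapping regions the counts were 190 and 510. The median change was 0 bp for the members and for all regions. Omitting 5M library 1 reversed the order, to 368 longer and 519 shorter of 2414 members. Omitting 5M library 2 gave 507 longer and 265 shorter of 2349. Omitting 60M library 1 gave 379 and 375 of 2166, and omitting 60M library 2 gave 498 and 354 of 2361. The shares over all regions were not computed in these settings, so the counts cannot be set against a background. All counts grow in such settings, since fewer libraries have to differ and the members were chosen anew, and more numerous, from the lists left.

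Of the 6 members with the largest gain in length, 3 had a single bin in each 5M library. On chromosome 11 (100146000 to 100152999) 1 kb was covered per 5M library, against 6 and 5 kb after 60 months. A second region on chromosome 11 (114931000 to 114936999) and a region on chromosome 1 (95933000 to 95939999) covered 1 kb in each 5M library and 5 kb in each 60M library. These 3 were weak, with mean percentiles within the lists of 28.7 to 41.1. The 6 members with the largest loss had mean percentiles of 43.6 to 94.0, against 20.5 to 49.9 for the 6 with the largest gain. On chromosome 9 (107290000 to 107296999) 2 and 1 kb were covered after 60 months, against 5 and 7 kb after 5. Its signal overlapped between the ages, with percentiles among the 4962 regions of 87.8 and 83.8 in the 5M libraries, and 90.4 and 83.0 in the 60M libraries. The chromosome 10 region (57677000 to 57684999) had 5 and 8 kb after 5 months and 2 and 1 kb after 60. A region on chromosome 6 (122499000 to 122506999) covered 2 and 1 kb after 60 months, against 6 and 8 kb after 5.

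Within the order of strength, more members stood higher at 60M than lower. A single region has no test of its own with 2 libraries per age, so such counts are descriptions. The members' mean percentile was 42.9 and 41.8 after 5 months, and 45.6 and 45.8 after 60 (42.4 ± 0.791 against 45.7 ± 0.109, SD, n = 2). The ages did not overlap (exact permutation test, p = 0.333, adjusted p = 0.778). The gap between the members and the H3K4me3-overlapping regions was -8.41 ± 1.28 percentile points after 5 months and -3.59 ± 0.0128 after 60. The ratio of their covered lengths did not overlap between the ages either, and its part in this gap was not tested. Both 60M libraries ranked 589 members (32.1%) higher than both 5M libraries did, against 27% of all 4962 regions, and 337 (18.3%) lower, against 25.1%. For the H3K4me3-overlapping regions the counts were 701 and 773. Ranks are relative, so a higher mean of the members within the 4962 regions goes with a lower mean of the others by construction. Ranked among the members alone, 450 were higher and 440 lower. More members ranked higher than lower whichever H3K27me3 library was omitted, with members and ranks set anew each time. The counts were 1108 against 672 of 2414 members without 5M library 1, and 970 against 688 of 2349 without 5M library 2. They were 1012 against 686 of 2166 without 60M library 1, and 1094 against 710 of 2361 without 60M library 2. Shares over all regions were not computed for these settings, so the counts have no background beside them.

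The largest shifts in rank show both directions. A region on chromosome 11 (94736000 to 94741999) reached percentiles among the 4962 regions of 76.1 and 56.8 after 60 months, against 9.8 and 9.6 after 5. Its covered length went from 1 and 3 kb to 6 and 5 kb, and an H3K4me3 region listed in all 4 libraries touched it. On chromosome 4 (129987000 to 129989999) the percentiles went from 24.1 and 33.4 to 83.0 and 80.1, again with an H3K4me3 neighbour in all 4 libraries. On chromosome 15 (80112000 to 80116999) they were 33.2 and 11.7 against 64.4 and 87.7. In the other direction, a region on chromosome 6 (114437000 to 114440999) went from 80.5 and 79.0 to 1.0 and 4.2, and lay 83 kb from any H3K4me3 peak. One on chromosome 13 (31168000 to 31173999), 58 kb from H3K4me3, went from 85.5 and 86.4 to 9.3 and 23.4, while its length went from 6 kb in each library to 1 and 2 kb. The region on chromosome 3 (146839000 to 146847999), 76 kb from H3K4me3, went from 90.2 and 92.9 to 31.0 and 38.7. All 6 were taken from members whose ages did not overlap in rank, so that lack of overlap is part of the choice. Of the 6 members with the largest shift up, 4 touched H3K4me3 and the other 2 lay 3 kb from it. Among the 6 with the largest shift down, 1 touched it and the others lay 1 to 83 kb away. Of all 1837 members, 47.2% touched H3K4me3 and 72.0% had it within 5 kb, and no link with these few picked regions was tested.

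**Figure D4:**
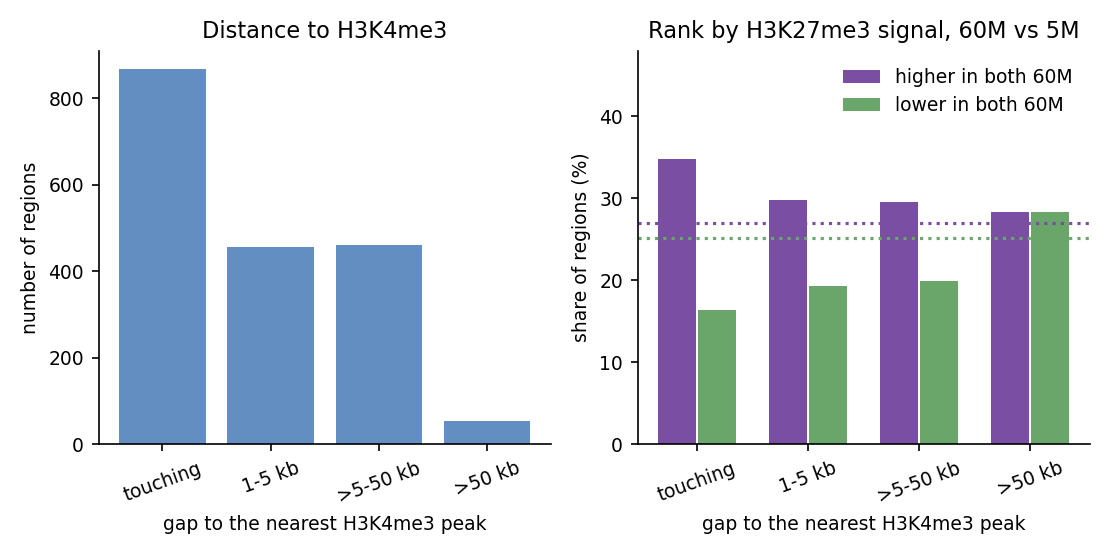
Left, number of members (y axis) by gap to the nearest H3K4me3 peak; right, share of the members in each gap class that ranked higher (purple) or lower (green) in both 60M libraries than in both 5M libraries, with dotted lines at the shares over all 4962 regions (27 and 25.1%). The touching class holds 867 members, with 34.8% higher and 16.4% lower; the class over 50 kb holds 53 members, with 28.3% each way.

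With all libraries, members that touched H3K4me3 had more higher ranks for each lower rank than the rest. This order did not hold when 60M library 1 was left out. Of the 867 touching members, 302 ranked higher and 142 lower in both 60M libraries, a ratio of 2.13. The ratio was 1.55 from 1 to 5 kb (136 and 88 members), 1.48 over 5 to 50 kb (136 and 92), and 1 over 50 kb (15 and 15). The mean percentile of the touching members was 49.5 and 47.2 after 60 months, against 44.2 and 42.8 after 5, so the ages did not overlap. Over 50 kb it was 29.1 and 30.9 after 60 months, against 35.5 and 36.3 after 5, the opposite direction, again with no overlap. All members that did not touch H3K4me3 had a ratio of 1.47. Without 60M library 1 the ratios were close, at 1.45 for touching members (467 and 322) and 1.497 for the others (545 and 364). The members were chosen anew in that setting, 2166 in number, so the change cannot be assigned to this library alone. Without 5M library 2 the ratios were 1.496 and 1.33, without 5M library 1 they were 1.90 and 1.45, and without 60M library 2 they were 2.08 and 1.18. With peaks held to a −log10 p of 5 or more they were 1.70 and 1.61. In covered bases, 109 touching members (12.6%) covered more at 60M and 68 (7.84%) less. Over 50 kb away, 4 (7.55%) covered more and 10 (18.9%) less, close to the 8.28% and 16.7% of all 4962 regions. The classes were set after the data were examined and the difference between them was not tested. The share of members with H3K4me3 nearby did not overlap between the ages either, as given above, and its part in these shifts was not tested.

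A few members lay far from any H3K4me3. The widest gap was 535 kb, for a region on chromosome 4 (16902000 to 16904999) where the signal reached 53.9 and 61.8 after 5 months and 50.6 and 55 after 60, over 2 or 3 kb. Its neighbour (16907000 to 16911999) lay 528 kb from H3K4me3. Both stood below the middle of the 4962 regions in all 4 libraries. A region on chromosome 9 (16675000 to 16680999), 321 kb away, went from 5 and 6 kb to 1 kb in each 60M library. A region on chromosome 11 (27101000 to 27104999), 238 kb away, went from percentiles of 38.5 and 51.4 to 4.0 and 11.4. On chromosome 6 (41874000 to 41876999), 191 kb away, the percentiles went the other way, from 16.9 and 14.4 to 25.0 and 39.4.

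The longest members lay just under the width limit. The longest by mean covered length was on chromosome 16 (91062000 to 91070999), with 8 kb in each 5M library and 9 kb in each 60M library, and it lay 14 kb from H3K4me3. A region on chromosome 2 (174028000 to 174036999) covered 6 and 9 kb after 5 months and 9 kb in each 60M library, and one on chromosome 19 (47299000 to 47307999) covered 8 kb in 3 libraries and 9 kb in 60M library 1. The last of these went from percentiles of 64.4 and 60.2 to 84.1 and 85.6 among the 4962 regions. Just inside the limit, 8 members had a widest peak of 9 kb. Just outside, the 10 regions left out had widest peaks of 10 to 15 kb, among them chromosome 17 (45666000 to 45680999) with 15 kb in 3 libraries and 12 kb in 60M library 2.

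The members were spread over all 19 autosomes and nearly missing from the X chromosome. Autosomes held 0.451 to 1.14 members per Mb, lowest on chromosomes 1 and 3 (0.464) and highest on chromosome 19. The H3K4me3-overlapping regions varied less, from 0.865 to 1.34 per Mb. Chromosome 8 had 140 members and 150 H3K4me3-overlapping regions, whereas chromosome 3 had 74 and 195. The X chromosome held 8 members (0.435% of all, exact 95% interval 0.188 to 0.856%), or 0.0480 per Mb, against 0.740 per Mb over the autosomes, a ratio of 15.4. The same ratio was 5.84 for the H3K4me3-overlapping regions, 4.54 for all H3K27me3 regions and 2.37 for all H3K4me3 regions, so peaks of both marks were sparser on the X chromosome. With H3K27me3 peaks held to a −log10 p of 5 or more, the share on the X chromosome was 0.114%. Of the 8, 7 were weak, with mean percentiles within the lists of 1.9 to 26.4. The exception, on chromosome X (133635000 to 133640999), covered 6 kb in all 4 libraries, and its signal reached 73.8 and 81.4 after 5 months and 65.1 and 54.4 after 60.

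**Figure D5:**
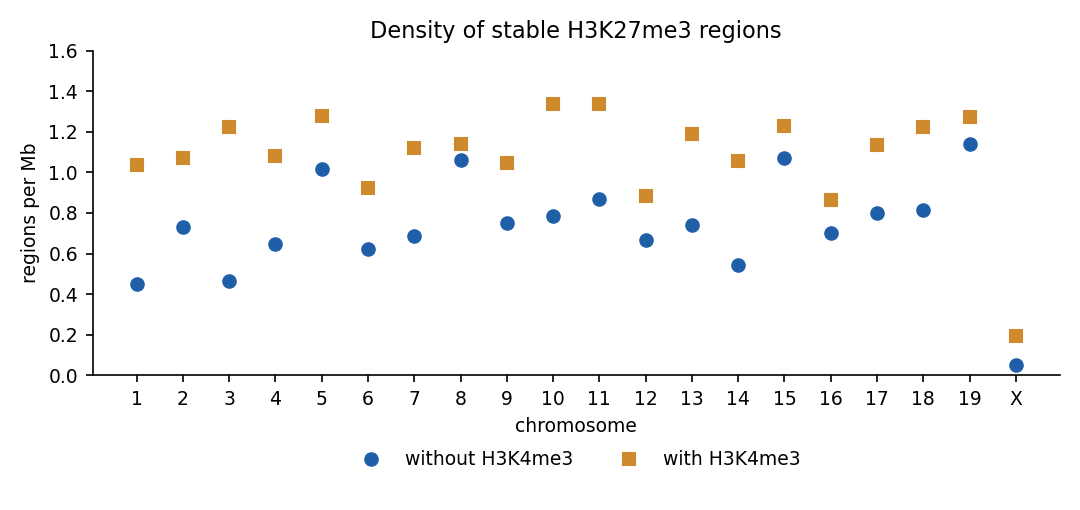
Regions per Mb of each chromosome (y axis) for stable H3K27me3 regions without H3K4me3 (circles) and with it (squares); the x axis lists chromosomes. Circles run from 0.451 on chromosome 1 to 1.14 on chromosome 19, and both symbols drop on the X chromosome, to 0.0480 and 0.192.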

How the data were processed

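The authors deposited 1 peak list per library. The submitters' processing notes name Bowtie 1.1.2 and CASAVA 1.8.4. No source used here names the peak caller. Per the file headers each list gives peak borders, the highest immunoprecipitation signal, a q-value, and −log10 p-values with and without the control. The notes name mm10, but 1331 of 233295 peaks end past an mm10 chromosome and 2 past an mm9 chromosome. Gene names, the planned gene and marker lists, and sequences were therefore not used, and positions were not converted.

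Peaks were merged at 1 bp of overlap. Strength was the highest deposited signal in a region, ranked within a library. A member counted as higher or lower at 60M when both libraries of 1 age lay beyond both of the other. Library means were compared by exact two-sided permutation tests, and intervals of shares are exact (Clopper-Pearson, 95%) and cover counting error only. Members, lists and measures were chosen with earlier results of these data known. Named regions were the 12 strongest members, the 6 longest, the 6 farthest from H3K4me3, the 3 largest runs, and those at the width limit. Also named were the 6 with the largest change per direction in rank and in covered length. These came only from members whose ages did not overlap in that measure. The text gives some of each. The comparison of lengths and ranks with H3K4me3-overlapping regions, the gap classes, the touching counts and the X chromosome list were added after the data were examined. Alternatives changed the merging, the overlap, the peak threshold, list length, H3K4me3 filter, width limit, measure and libraries used. Members were chosen anew under each alternative to the rule or to the lists. The code was tested on simulated data. Python 3.11.15, numpy 2.4.6, pandas 2.3.3, scipy 1.17.1 and matplotlib 3.10.9 were used.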

Additional observations from a re-analysis of the deposited data

How the results depend on the processing

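The number of members depended most on the peak threshold and the distance kept from H3K4me3. It was 875 when H3K27me3 peaks needed a −log10 p of 5 or more and 514 when regions within 5 kb of H3K4me3 were left out, and 2166 to 2414 without 1 H3K27me3 library and 1844 to 1919 without 1 H3K4me3 library. At the stricter −log10 p, 81 members covered more and 82 less at 60M, 275 ranked higher and 166 lower, and 0.114% lay on the X chromosome (0.116% with lists of equal length). With regions near H3K4me3 left out, 45 covered more and 61 less, and 151 ranked higher and 107 lower. A width limit of 5 kb left 113 that covered less. Without 1 H3K27me3 library, 368 to 507 members covered more, 265 to 519 covered less, 970 to 1108 ranked higher and 672 to 710 lower; without 1 H3K4me3 library the ranges were 204 to 212, 177 to 188, 591 to 613 and 339 to 364. More ranked higher than lower in each of these settings, but the shares over all regions were not computed in them. The share within 5 kb of H3K4me3 was 65.0% with weak H3K4me3 peaks ignored and 70.6 to 74.5% with 1 library left out. The change in covered length, 0.0212 kb, turned to -0.0125 kb when 1 common bin was required, -0.0354 kb at the stricter −log10 p, -0.0247 kb with weak H3K4me3 peaks ignored and -0.160 kb away from H3K4me3, and ran from -0.0986 to 0.239 kb with 1 library left out. The ratio of lengths and the difference in percentile kept their direction in each setting run, but away from H3K4me3 they fell to 0.0347 and 2.69, where the ages overlapped in the percentile. With the replicate number as a block, the change in covered length stayed 0.0212 kb (exact sign-flip permutation p = 1) and that in the ratio 0.0778 (exact permutation p = 0.5, the smallest that 2 pairs allow). Deviations of same-numbered libraries from their age means correlated at r = 0.083 for rank and 0.011 for length over the members, so the numbers were not taken as pairs. The causes of these changes were not tested, except that fewer peaks or regions enter a stricter setting. Depth is unknown and cannot be set against any of these values.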
